A study of Bos taurus and Sus scrofa with 10 samples.

Results

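Described here are 10 genes of the Hippo pathway and its transcription factors, followed from the oocyte to the blastocyst in cow (Bos taurus) and in pig (Sus scrofa). They were chosen by name: the coactivators YAP1 and WWTR1, the transcription factors TEAD1, TEAD2, TEAD3 and TEAD4, the kinases LATS1 and LATS2, and the upstream scaffolds AMOTL2 and NF2. All 10 are among the 21867 rows of the pig table. The cow table, with 22845 rows, lists 9 of them, and a cow YAP1 row was not analysed here. Each gene found had 1 row, so no choice between rows was needed.

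RNA sequencing of total RNA covered 5 stages in each species, namely oocytes, embryos of 2-4 cells, embryos of 8-16 cells, morulae (compact balls of cells) and blastocysts (hollow embryos whose inner cell mass is enclosed by trophectoderm). Every stage of each species was 1 library, which makes 10 libraries, so no difference below has a replicate check and no p-value is given. The labels give the species and the stage only; the breed, the age of the animals, the way the embryos were produced, the culture and the number of oocytes or embryos in a library are not stated in the sources used here. Levels are given as reads of a gene per 1000000 library reads (RPM) without division by length, so a level is compared between stages of one gene and not between genes.

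In the Hippo pathway a chain of kinases ends in LATS1 and LATS2, which phosphorylate the coactivators YAP1 and WWTR1 (the protein TAZ) and keep them out of the nucleus. Coactivators that escape bind TEAD proteins, which carry them to DNA. In mouse embryos this pathway reads whether a cell lies outside or inside: outer cells keep YAP1 in the nucleus and, through TEAD4, switch on trophectoderm genes, whereas inner cells keep it out with the help of angiomotins and of NF2. RNA levels do not show where a protein lies in the cell or whether it is phosphorylated.

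Read totals ranged from 3002751 in the pig morula library to 14182046 in the cow blastocyst library, so low values are most precise in the latter. A floor of 3 reads, the upper limit that a count of 0 allows, was 0.212 to 0.999 RPM. The mitochondrial share of reads was 4.40% for the cow oocyte and 30.2% for the cow blastocyst, and 6.06% to 18.6% in the pig libraries. The labelled stages were checked against marker genes. The summed level of 7 oocyte markers was 5314 RPM in the cow oocyte and 0 in the cow blastocyst, where all 7 had 0 reads, and it was 5092 and 21.2 RPM in pig. Blastocyst markers (5 of 6 found in cow, 6 of 6 in pig) summed to 22.7 RPM in the cow oocyte and 2771 RPM in the cow blastocyst, and to 19.8 and 6972 RPM in pig. Of 10 markers of cumulus cells, which surround the oocyte, 10 were found in cow and 7 in pig. Their sum was 53.9 to 315 RPM in cow, with the maximum in the oocyte and AMH, INHA and FST at 0 reads there. In pig it was 89.2 to 342 RPM, with the maximum in the morula and not in the oocyte. The pig oocyte had 118 RPM, with TNFAIP6 and INHA at 0 reads. The part of these cells in the results was not tested. In whole embryos, fewer cells of one type and less RNA per cell cannot be told apart.

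Between the oocyte and the blastocyst the levels of WWTR1, TEAD4 and AMOTL2 rose in both species, those of TEAD1 and NF2 rose in cow, and that of TEAD3 rose in pig, while no gene of the set fell past the threshold used between these 2 stages. A change was computed as the difference of log2(RPM + 1), later stage minus earlier stage, and a gene was called changed at a difference of 2 or more in size, which is 4-fold on that scale. The scale understates changes of genes with low levels, and a gene was compared only where one of both stages had at least 1 RPM. In cow 5 of 9 genes were called higher and 0 lower, with a median difference of 2.35; among all 12738 genes compared, 40.2% were called changed, 21.8% higher and 18.4% lower, with a median of 0.18. In pig 4 of the 9 genes compared were called higher and 0 lower, with a median of 1.68; among all 12512 genes compared, 45.2% were called changed, 26.0% higher and 19.2% lower, with a median of 0.43. The remaining pig gene, TEAD2, had 0 reads in the oocyte and 1 read in the blastocyst.

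Of the 10 changes called between consecutive stages, 6 fell on the step to the morula. From the 8-16 cell stage to the morula 3 of the 8 genes compared in cow were called higher, WWTR1, TEAD1 and AMOTL2, where 6.67% of 12334 genes were called higher, 5.15% lower and 11.8% either way. At the same step 3 of 10 were called higher in pig, WWTR1, TEAD4 and AMOTL2, where 12.0% of 12746 genes were higher, 11.3% lower and 23.3% either way. Between the 2-4 cell and 8-16 cell embryos 2 of 9 were called in cow, WWTR1 and TEAD4, both higher, beside 12.6% of all genes higher, 14.6% lower and 27.2% either way, and 0 of 9 in pig, beside 4.33% higher, 0.543% lower and 4.87% either way. The first step, from the oocyte, had 0 of 8 called in cow, beside 0.196% higher, 0.178% lower and 0.374% either way, and 1 of 8 in pig, TEAD4, beside 3.26% higher, 2.17% lower and 5.43% either way. The last step, to the blastocyst, had 1 of 9 in cow, TEAD3, beside 11.9% higher, 11.5% lower and 23.4% either way, and 0 of 10 in pig, beside 13.8% higher, 13.8% lower and 27.6% either way. In all, 6 of 34 comparisons of a gene at a step were called in cow and 4 of 37 in pig, every one of them higher.

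**Figure D1:**
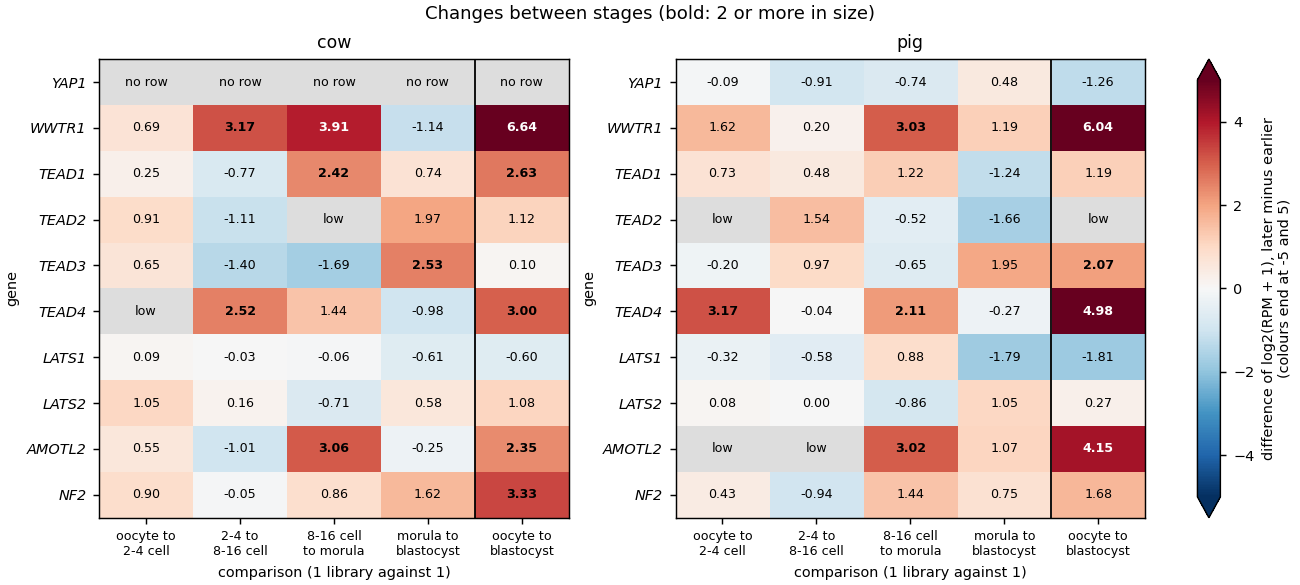
Difference of log2(RPM + 1), later minus earlier stage, for each of the 10 genes (rows) at the 4 consecutive steps and over the whole course (columns), with cow on the left and pig on the right. Bold values are 2 or more in size, "low" marks a comparison with under 1 RPM in both stages, and the column from the 8-16 cell stage to the morula holds 3 bold values in each species.

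The coactivator WWTR1 showed the widest range of the set. In the cow table it lies on chromosome 1, 119437952 to 119583580, and in the pig table on chromosome 13, 89746016 to 89889187; these and all other positions are whole gene spans as the authors' tables give them, on UMD3.1 for cow and Sscrofa11.1 for pig. Cow WWTR1 measured 1.01 RPM in the oocyte (5 reads), 2.25 in the 2-4 cell embryo, 28.3 in the 8-16 cell embryo, 441 in the morula and 199 in the blastocyst. It was near the floor in the first stages, highest in the morula and lower again in the blastocyst. The rise from the 2-4 cell to the 8-16 cell stage was 3.17 on the log2 scale, a ratio of 12.6 with an exact 95% interval of 6.66 to 26.8, and the next one, into the morula, was 3.91, a ratio of 15.6 (13.2 to 18.5). These intervals, like all others here, cover counting error only. The blastocyst level was 2.21-fold below that of the morula, a difference of -1.14 that was not called.

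Pig WWTR1 measured 0 RPM in the oocyte (0 reads), 2.90 in the 2-4 cell embryo, 3.47 in the 8-16 cell embryo, 35.6 in the morula and 82.3 in the blastocyst. The 2-4 cell and 8-16 cell values overlapped within their 95% Wilson intervals, and the morula and the blastocyst each stood above all earlier stages. The rise from the 8-16 cell stage to the morula was 3.03, a ratio of 10.3 (5.51 to 21.2). In cow the gene had already risen one step earlier, whereas in pig the difference at that earlier step was 0.20. From oocyte to blastocyst the change was 6.64 in cow, a ratio of 197 (84.2 to 606), and 6.04 in pig, at least 92.7-fold. Here and below, "at least" sets 0 reads to the floor of 3 reads and leaves out the counting error of the other stage.

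YAP1, the paralogue of WWTR1, was seen in pig only, on chromosome 9, 32811231 to 32925606. Its level was 309.7 RPM in the oocyte, 291 in the 2-4 cell embryo, 155 in the 8-16 cell embryo, 92.2 in the morula and 129 in the blastocyst. Oocyte and 2-4 cell values overlapped within their counting intervals, and every later stage lay below both. No step was called, the largest in size being -0.91 between the 2-4 cell and the 8-16 cell stage. The blastocyst was 2.41-fold below the oocyte (2.16 to 2.69), a difference of -1.26 that stayed under the threshold.

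Pig WWTR1 therefore made up a growing part of the reads of the 2 coactivators. Of all YAP1 and WWTR1 reads, WWTR1 had 0 of 1046 in the oocyte, with a 95% Wilson upper limit of 0.366%. It then had 0.986% (95% Wilson interval 0.565 to 1.72) in the 2-4 cell embryo and 2.20% (1.23 to 3.89) in the 8-16 cell embryo. The share was 27.9% (23.6 to 32.6) in the morula and 39.0% (35.7 to 42.5) in the blastocyst. A share of reads within a library does not depend on how libraries are scaled to one another, but a longer transcript gives more reads, so it is not a share of molecules.

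**Figure D2:**
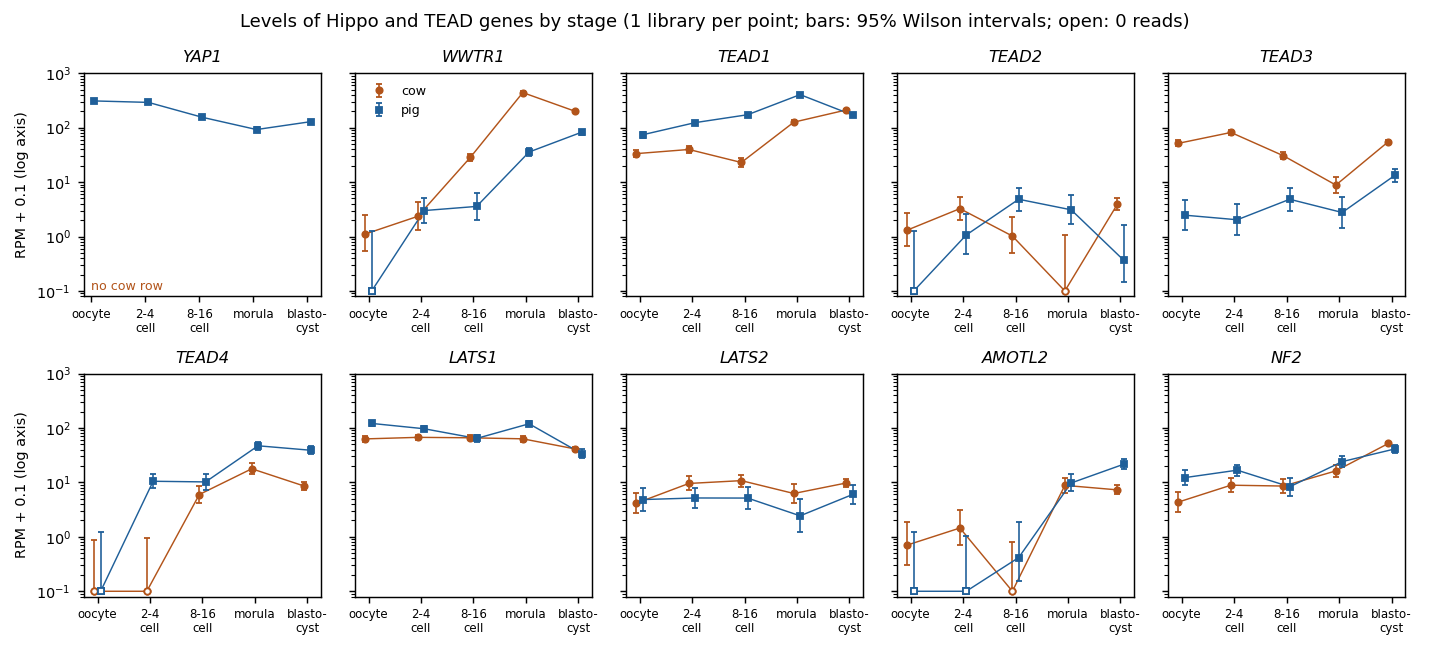
Level of each gene by stage, as RPM + 0.1 on a log axis, for cow (circles) and pig (squares), 1 library per point, with 95% Wilson intervals as bars and open symbols for 0 reads. WWTR1, TEAD4 and AMOTL2 climb from near the bottom of the axis in both species, whereas pig YAP1 declines from 309.7 to 92.2 RPM in the morula and LATS2 stays between 2.33 and 10.7 RPM.

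Among the DNA-binding partners, TEAD4 is the one that mouse embryos need for trophectoderm. Cow TEAD4 (chromosome 5, 107264250 to 107325273) had 0 reads in the oocyte and in the 2-4 cell embryo, and measured 5.89 RPM in the 8-16 cell embryo, 17.7 in the morula and 8.46 in the blastocyst. It had no reads before the 8-16 cell stage and was highest in the morula. Its rise from the 2-4 cell to the 8-16 cell stage was 2.52, at least 8.72-fold, and over the whole course 3.0, at least 13.9-fold. Under a pseudocount of 5 in place of 1, which weighs low levels less, these were 1.07 and 1.38 and not called.

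Pig TEAD4 (chromosome 5, 67124726 to 67194381) measured 0 RPM in the oocyte (0 reads), 10.4 in the 2-4 cell embryo, 10.1 in the 8-16 cell embryo, 47.0 in the morula and 38.9 in the blastocyst. The levels formed 3 tiers: no reads, then 2 stages whose intervals overlapped, then 2 higher stages whose intervals overlapped. The first rise came between the oocyte and the 2-4 cell embryo, 3.17 and at least 11.7-fold, and the second between the 8-16 cell stage and the morula, 2.11 with a ratio of 4.65 (3.15 to 7.05). The first was 1.55 and lost under a pseudocount of 5, and the second was lost under a pseudocount of 5 (1.78), median of ratios scaling (1.92) and quantile normalisation (1.98). Over the whole course pig TEAD4 rose by 4.98, at least 43.8-fold. The 2-4 cell libraries thus differed between species, with 43 reads in pig and 0 in cow.

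TEAD1, the broadly expressed member of the family, was present from the oocyte onward. Cow TEAD1 (chromosome 15, 40303805 to 40482346) measured 33.3 RPM in the oocyte, 39.7 in the 2-4 cell embryo, 22.8 in the 8-16 cell embryo, 126 in the morula and 211 in the blastocyst. Morula and blastocyst stood above the 3 earlier stages and apart from each other. The rise to the morula was 2.42, a ratio of 5.53 (4.53 to 6.79), and the rise from oocyte to blastocyst was 2.63, a ratio of 6.35 (5.43 to 7.48).

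Pig TEAD1 (chromosome 2, 46400066 to 46670472) measured 74.0 RPM in the oocyte, 124 in the 2-4 cell embryo, 173 in the 8-16 cell embryo, 405 in the morula and 170 in the blastocyst. It peaked in the morula, while 8-16 cell and blastocyst values overlapped within their counting intervals. No pig step was called: the morula differed from the 8-16 cell embryo by 1.22 and from the blastocyst by -1.24. From oocyte to blastocyst the ratio was 2.30 (1.98 to 2.67), a difference of 1.19.

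TEAD3, best known from placenta, went down and up again in cow. Cow TEAD3 (chromosome 23, 9398811 to 9422609) measured 51.5 RPM in the oocyte, 81.6 in the 2-4 cell embryo, 30.4 in the 8-16 cell embryo, 8.72 in the morula and 55.2 in the blastocyst. The morula was the lowest stage, and oocyte and blastocyst overlapped within their intervals. The differences into the 8-16 cell stage and into the morula, -1.40 and -1.69, were each under the threshold. Across both together, from the 2-4 cell embryo to the morula, the difference was -3.09, 9.35-fold lower (6.57 to 13.7), and from the oocyte to the morula -2.43, 5.91-fold lower (4.12 to 8.72). Both lie past the threshold, as did 18.8% and 15.2% of all genes in that direction, but stages that are not neighbours were not among the comparisons counted or recomputed under other settings. The rise from the morula to the blastocyst was 2.53, a ratio of 6.33 (4.49 to 9.21). The net difference from oocyte to blastocyst was 0.10.

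In pig TEAD3 (chromosome 7, 31337890 to 31351452) the values were 2.37, 1.93, 4.74 and 2.66 RPM from the oocyte to the morula and 13.1 RPM in the blastocyst. Neighbouring values of the first 4 stages overlapped in rank order, and the blastocyst stood above them. Its change from oocyte to blastocyst, 2.07 with a ratio of 5.55 (2.61 to 13.6), rested on 8 and 49 reads and was lost under a pseudocount of 5 (1.30), median of ratios scaling (1.95) and quantile normalisation (1.30). The step from morula to blastocyst, 1.95, was not called.

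TEAD2 stayed under 5 RPM in every library. The cow values were 1.22, 3.15, 0.920, 0 and 3.81 RPM in stage order (chromosome 18, 56281561 to 56295723), with the highest in the blastocyst and 0 reads in the morula. The pig values were 0, 0.967, 4.74, 2.997 and 0.268 RPM (chromosome 6, 54448188 to 54462285), with the highest in the 8-16 cell embryo and 1 read in the blastocyst. No TEAD2 difference was called between consecutive stages or from oocyte to blastocyst. The cow step from morula to blastocyst, 1.97, came close. It was called under a pseudocount of 0.5, a threshold of 1, median of ratios scaling, non-mitochondrial scaling and equal depth. Between stages farther apart, the pig 8-16 cell embryo stood 2.18 above the oocyte, at least 5.33-fold, where 7.74% of all genes lay past the threshold in that direction. From the pig 8-16 cell embryo to the blastocyst the difference was -2.18, which rests on 15 reads against 1, where 18.6% of all genes lay past the threshold in that direction. The pig TEAD2 span overlaps that of CD37 on the opposite strand by 4027 bases and the cow span by 3 bases. CD37 reached 11.4 RPM in the pig libraries, and since the counting rule for strand is not given in the sources used here, reads of the overlap cannot be assigned with certainty.

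**Figure D3:**
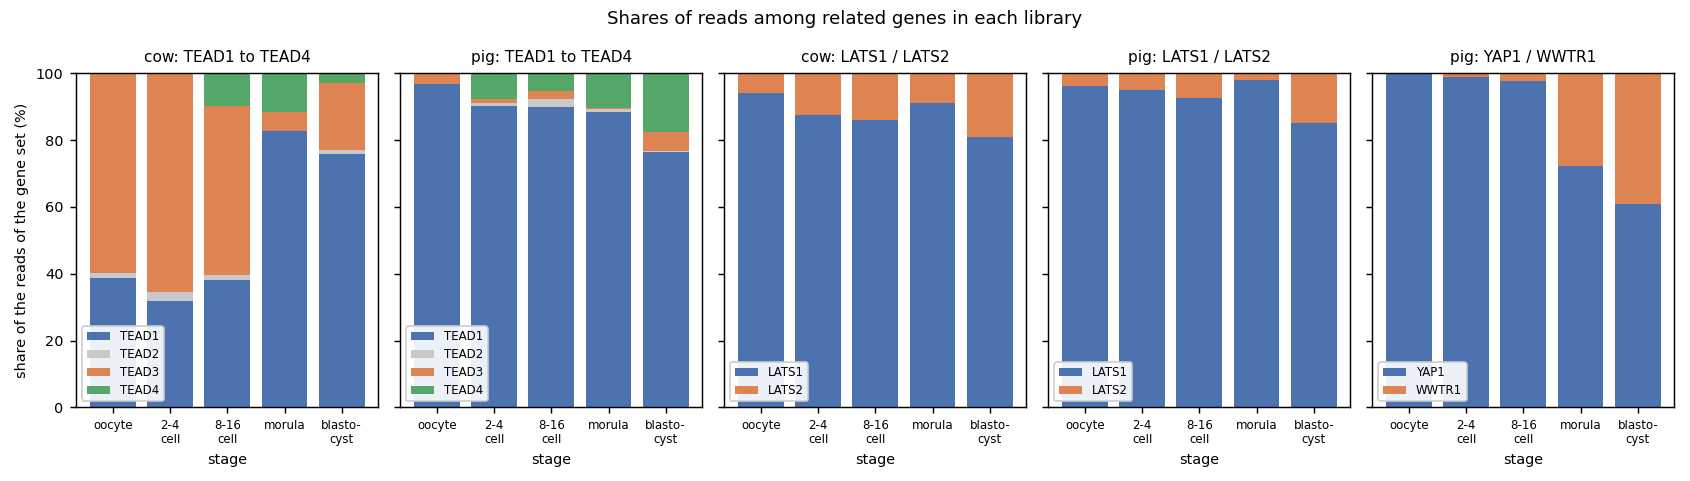
Share of reads (percent, bars from 0 to 100) that each related gene took in each library: the TEAD genes in cow and pig, LATS1 and LATS2 in cow and pig, and YAP1 and WWTR1 in pig. In cow the TEAD3 part shrinks from 59.9% in the oocyte to 5.71% in the morula while TEAD1 grows from 38.7% to 82.7%, and in pig TEAD1 keeps 76.5% or more in every library.

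The makeup of the TEAD reads turned over in cow and less so in pig. Of the 424 TEAD reads of the cow oocyte, TEAD3 had 59.9% (55.2 to 64.5) and TEAD1 38.7% (34.2 to 43.4). TEAD3 kept the larger share in the 2-4 cell embryo, 65.6% (61.5 to 69.4), and had 50.6% (45.2 to 56.0) in the 8-16 cell embryo. In the cow morula TEAD1 had 82.7% (79.4 to 85.5) and TEAD3 5.71% (4.12 to 7.88), and in the cow blastocyst 75.8% (74.4 to 77.1) and 19.8% (18.6 to 21.1). TEAD4 had 0 of 552 reads in the cow 2-4 cell embryo, with a Wilson upper limit of 0.691%. Its share was 9.82% (7.04 to 13.5) in the 8-16 cell embryo, 11.6% (9.27 to 14.4) in the morula and 3.03% (2.54 to 3.62) in the blastocyst.

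In pig TEAD1 took 96.9% (94.0 to 98.4) of the TEAD reads in the oocyte, 90.3% in the 2-4 cell embryo, 89.8% in the 8-16 cell embryo, 88.5% in the morula and 76.5% (73.5 to 79.3) in the blastocyst. TEAD4 took the next largest part after the oocyte: 7.58% (5.68 to 10.1) in the 2-4 cell embryo, 5.25% (3.75 to 7.32) in the 8-16 cell embryo, 10.3% (8.77 to 12.0) in the morula and 17.5% (15.0 to 20.2) in the blastocyst. From morula to blastocyst the TEAD4 share thus moved in opposite directions, down in cow and up in pig. The share intervals did not overlap in either species, and the difference between species was not tested. The TEAD4 level did not rise in pig at that step. Its difference was -0.98 in cow and -0.27 in pig, where the intervals of the levels overlapped. Pig TEAD1 went from 405 to 170 RPM at the same step.

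No difference of the kinases that phosphorylate YAP1 and WWTR1 was called in either species. Cow LATS1 (chromosome 9, 88008820 to 88046821) measured 62.9 RPM in the oocyte, 67.1 in the 2-4 cell embryo, 65.9 in the 8-16 cell embryo, 63.1 in the morula and 41.0 in the blastocyst. The first 4 values overlapped within their intervals and the blastocyst lay below them. That last level was 1.53-fold lower than in the oocyte (1.33 to 1.76), a difference of -0.60, which became -0.21 when libraries were scaled to their non-mitochondrial reads.

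Pig LATS1 (chromosome 1, 16274843 to 16321581) measured 121 RPM in the oocyte, 96.7 in the 2-4 cell embryo, 64.1 in the 8-16 cell embryo, 119 in the morula and 33.8 in the blastocyst. Oocyte and morula overlapped, and the blastocyst was the lowest. Its level was 3.53-fold below the morula and 3.58-fold below the oocyte (2.93 to 4.41), differences of -1.79 and -1.81 that came close to the threshold without passing it.

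LATS2 lay between 4.06 and 10.7 RPM in cow (chromosome 12, 35919546 to 35942309) and between 2.33 and 5.90 RPM in pig (chromosome 11, 1225526 to 1266380). Cow values were 4.06, 9.46, 10.7, 6.15 and 9.66 RPM in stage order, and pig values 4.74, 5.07, 5.05, 2.33 and 5.90 RPM. In rank order every value overlapped its neighbour in both species. The oocyte-to-blastocyst ratio was 2.38 (1.48 to 4.02) in cow and 1.25 (0.625 to 2.54) in pig, and the sign of the pig difference turned under quantile normalisation. Of the LATS reads, LATS2 had 6.06% (3.96 to 9.18) in the cow oocyte and 19.1% (16.4 to 22.1) in the cow blastocyst, and 3.76% (2.33 to 6.03) and 14.9% (10.03 to 21.5) in pig, so its share was larger in the blastocyst in both species.

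AMOTL2, an angiomotin-family scaffold that binds YAP1 at junctions, had at most 6 reads in any library before the morula stage. Cow AMOTL2 (chromosome 1, 136053624 to 136071002) measured 0.609 RPM in the oocyte (3 reads), 1.35 in the 2-4 cell embryo, 0 in the 8-16 cell embryo (0 reads), 8.72 in the morula and 7.19 in the blastocyst. Morula and blastocyst overlapped within their intervals and lay above the 3 earlier stages. The rise to the morula was 3.06, at least 15.8-fold. From oocyte to blastocyst the change was 2.35, with a ratio of 11.8 (3.93 to 58.3), and it was lost under a pseudocount of 5 (1.12) and under quantile normalisation (1.89).

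Pig AMOTL2 (chromosome 13, 75490959 to 75509420) had 0 reads in the oocyte and in the 2-4 cell embryo and 1 read in the 8-16 cell embryo, and measured 9.66 RPM in the morula and 21.4 RPM in the blastocyst. The 2 last stages stood apart from the first 3 and from each other. The rise to the morula was 3.02, a ratio of 30.6 with a wide interval of 5.07 to 1249, and the rise over the whole course was 4.15, at least 24.1-fold. The jump between the 8-16 cell stage and the morula was therefore called in both species, and under a pseudocount of 5 it was 1.41 in cow and 1.46 in pig and no longer called.

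NF2 encodes Merlin, a membrane-linked scaffold that brings LATS kinases to their activators. Cow NF2 (chromosome 17, 70895108 to 70966968) measured 4.26 RPM in the oocyte, 8.79 in the 2-4 cell embryo, 8.47 in the 8-16 cell embryo, 16.2 in the morula and 51.8 in the blastocyst. The blastocyst and then the morula stood above the earlier stages, each step stayed under the threshold (the largest was 1.62, to the blastocyst), and the sum of the steps passed it: 3.33, a ratio of 12.2 (7.90 to 19.8).

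Pig NF2 (chromosome 14, 46653846 to 46726417) measured 12.1, 16.7, 8.21, 24.0 and 41.0 RPM in stage order. The blastocyst was the highest stage and did not overlap the morula. From oocyte to blastocyst the ratio was 3.38 (2.38 to 4.89), a difference of 1.68 that was not called.

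Set side by side, the 8 genes compared in both species from oocyte to blastocyst all differed in the same direction, 7 higher and LATS1 lower, although the pig LATS2 difference turned sign under quantile normalisation. Of these, 3 were called in both species, all higher: WWTR1, TEAD4 and AMOTL2. How many of all shared symbols were called in both was not computed, so this count has no background beside it. Among all 8567 shared symbols compared, 68.4% differed in the same direction. From the 8-16 cell stage to the morula 7 of 8 went the same way, LATS1 being the exception with differences of -0.06 in cow and 0.88 in pig, beside 56.4% of all shared symbols. At the step before that one 3 of 8 did, beside 52.5%, but the signs of the small differences of cow LATS1 (-0.03), cow NF2 (-0.05), pig WWTR1 (0.20) and pig LATS2 (-0.0049) turned under some of the other settings tried. From the oocyte to the 2-4 cell stage 4 of 6 did, beside 45.0%, with signs that turned in the same way for cow LATS1 (0.09) and cow TEAD1 (0.25), and from the morula to the blastocyst 5 of 9, beside 64.4%. At that last step TEAD1, TEAD2, WWTR1 and AMOTL2 differed in opposite directions, and the difference between species was not tested; the sign of the cow AMOTL2 difference (-0.25) turned under 1 of the other settings tried.

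Another 49 genes of the pathway were described by role, from oocyte to blastocyst. Of 42 compared in cow, 9 were called higher and 6 lower, with a median of 0.54; the split was 11 and 4 with scaling to non-mitochondrial reads and 10 and 4 with quantile normalisation. Of 43 compared in pig, 14 were called higher and 6 called lower, and the median was 1.47. Where genes at 0 reads were set to the floor, the medians were 0.47 and 1.25. These shares, 15 of 42 and 20 of 43, lie near the 40.2% and 45.2% of all genes given above. For the counts by role below, the shares of all genes were 21.8% higher and 18.4% lower in cow. In pig they were 26.0% higher and 19.2% lower. No role was tested against these shares. Of 38 compared in both species 26 differed in the same direction, beside 68.4% of all shared symbols. Of the 38, 10 were called in both, 7 of them higher, 2 lower and 1 opposite. The share of all shared symbols called in both species was not computed.

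**Figure D4:**
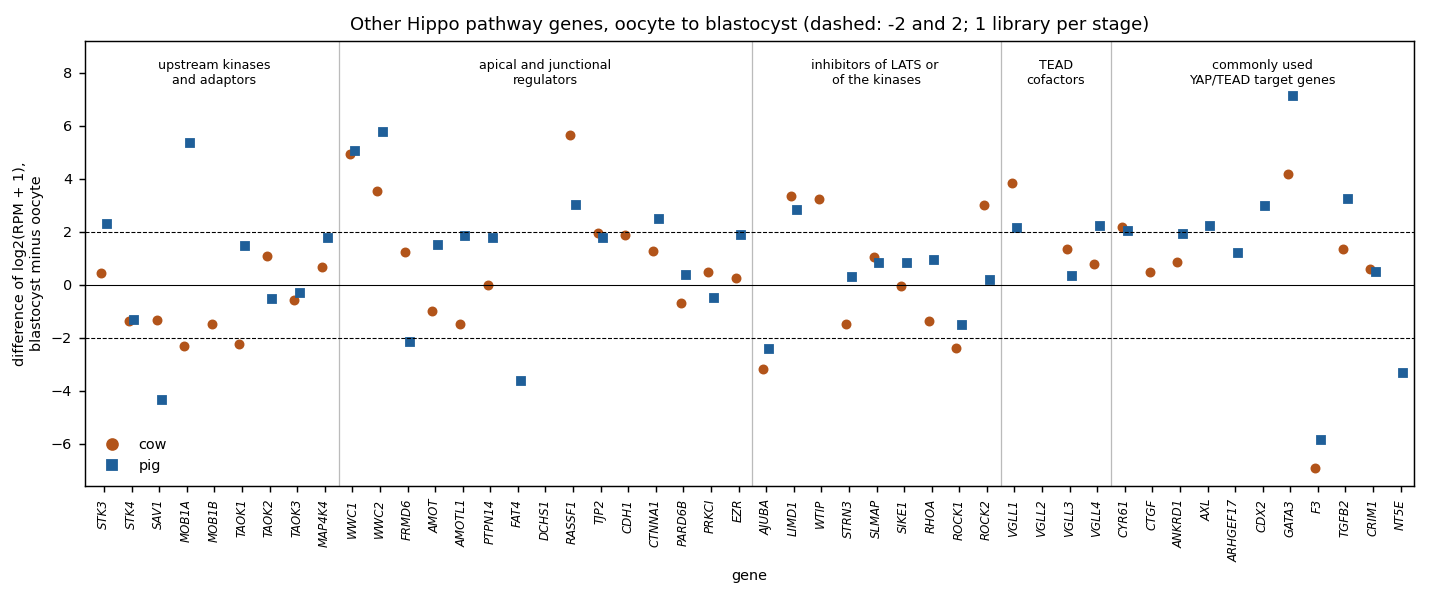
Difference of log2(RPM + 1) between oocyte and blastocyst for the other Hippo pathway genes named on the axis, grouped by role, for cow (circles) and pig (squares), with dashed lines at the thresholds of -2 and 2. WWC1, WWC2, RASSF1 and GATA3 lie above the upper line in both species, F3 and AJUBA below the lower one in both, and MOB1A lies on opposite sides.

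Among the apical and junctional regulators 3 of 13 were higher and 0 lower in cow, and 4 of 13 were higher and 2 lower in pig. RASSF1, a scaffold that binds the upstream kinases, had the largest cow rise of the group: 0, 0, 3.68, 6.67 and 58.3 RPM in stage order, a change of 5.65 and at least 95.8-fold. WWC2, of the KIBRA family that activates LATS, had the largest pig rise, with 2.66, 43.5, 44.8, 364 and 198 RPM, a change of 5.77 and a ratio of 74.5 (39.0 to 163), and it also rose in cow by 3.53. The largest pig fall was that of FAT4, an atypical cadherin, from 14.2 RPM to 0 reads, at least 17.7-fold lower, a change of -3.62 that a pseudocount of 5 brought to -1.87. WWC1, the relative of WWC2, named here after its values were seen, rose by 4.94 in cow and 5.03 in pig.

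Upstream kinases and adaptors had 0 higher and 2 lower of 9 in cow, and 2 higher and 1 lower of 8 in pig. MOB1A, a coactivator of the LATS kinases, was called in both species in opposite directions. Cow MOB1A measured 184, 136, 362, 89.2 and 36.0 RPM in stage order, peaking in the 8-16 cell embryo. Pig MOB1A measured 0.296 (1 read), 5.07, 10.4, 80.6 and 51.5 RPM, lowest in the oocyte and highest in the morula. Its change from oocyte to blastocyst was -2.32 in cow, the largest fall of the group (-1.93 with scaling to non-mitochondrial reads, and not called), and 5.34 in pig, the largest rise, with a ratio of 174 (30.8 to 6903). The pig span overlaps MTHFD2, which reached 249 RPM, on the opposite strand by 604 bases. SAV1, the scaffold of the upstream kinases, had the largest pig fall, from 138 to 5.90 RPM, a change of -4.33; its span overlaps that of ATL1 by 12787 bases.

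Inhibitors of LATS or of the kinases had 3 higher and 3 lower of 10 in cow, and 1 higher and 1 lower of 9 in pig. The LIM protein LIMD1, which holds LATS back, had the largest rise in each: in cow from 0 to 157 reads, a change of 3.35 and at least 18.2-fold, and in pig from 13 to 124 reads, a change of 2.82 and 8.64-fold (4.87 to 16.7). Its relative AJUBA fell in both, from 8.72 RPM to 0 reads in cow and from 5.63 RPM to 0 reads in pig, the largest fall of the group in pig, at least 6.99-fold. A pseudocount of 5 ended the cow LIMD1 call (1.63) and both AJUBA calls (-1.44 and -1.02).

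Of the other TEAD-binding cofactors 1 of 3 was higher in cow and 2 of 3 in pig, with 0 lower. VGLL1, which binds TEAD in place of YAP1, had 0 reads in cow from the oocyte to the morula and 16.1 RPM in the blastocyst, a change of 3.85 and at least 26.4-fold. In pig the largest rise was that of VGLL4, which competes with YAP1, with 30.2, 26.8, 51.2, 17.3 and 145 RPM, a change of 2.22; its span overlaps ATG7 by 1571 bases. Pig VGLL1, named after its values were seen, had 0, 1.69, 0, 0 and 4.56 RPM, a change of 2.13 that was lost under a pseudocount of 5 (0.86) and quantile normalisation (1.87).

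Commonly used YAP and TEAD target genes were called in both directions. In cow 2 of 7 were higher and 1 lower, and in pig 5 of 10 were higher and 2 lower. GATA3, a trophectoderm transcription factor that is also among the blastocyst markers above, had the largest rise in both. Cow GATA3 measured 3.45, 3.83, 0.552, 1.28 and 78.8 RPM and pig GATA3 0, 1.69, 3.47, 0.999 and 173 RPM, so both were high in the blastocyst alone. The change from oocyte to blastocyst was 4.16 in cow, a ratio of 22.8 (14.2 to 39.4), and 7.10 in pig, at least 194-fold. F3, tissue factor, had the largest fall in both, with 469, 334, 44.4, 19.5 and 2.89 RPM in cow and 1919, 1156, 913, 42.6 and 32.4 RPM in pig. Its changes were -6.92 and -5.84, and the pig span overlaps that of ABCD3 by 2984 bases.

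CTGF, CYR61 and ANKRD1, secreted or nuclear proteins widely used as readouts of YAP1 activity, were added after their values were seen. Cow CTGF measured 3.65, 1.80, 9.76, 30.0 and 5.43 RPM and pig CTGF 0, 1.69, 12.3, 90.6 and 0 RPM in stage order. The morula was the highest stage in both, and the pig blastocyst had 0 reads. From morula to blastocyst CTGF fell by 2.27 in cow, 5.53-fold lower (4.11 to 7.47), and it fell by 6.21 in pig, at least 113-fold lower. ANKRD1 had its maximum in the morula too, 3.85 RPM in cow and 24.0 RPM in pig, where the rise from the 8-16 cell stage was 2.48 and the span overlaps that of RPP30. CYR61 was highest in the blastocyst in cow, at 7.12 RPM, and in the morula in pig, at 7.33 RPM, where its span overlaps ZNHIT6. CTGF and GATA3 thus differed in their course: the step to the blastocyst took CTGF down and GATA3 up in both species, while WWTR1 was 2.21-fold lower in cow and 2.31-fold higher in pig at that step.

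**Figure D5:**
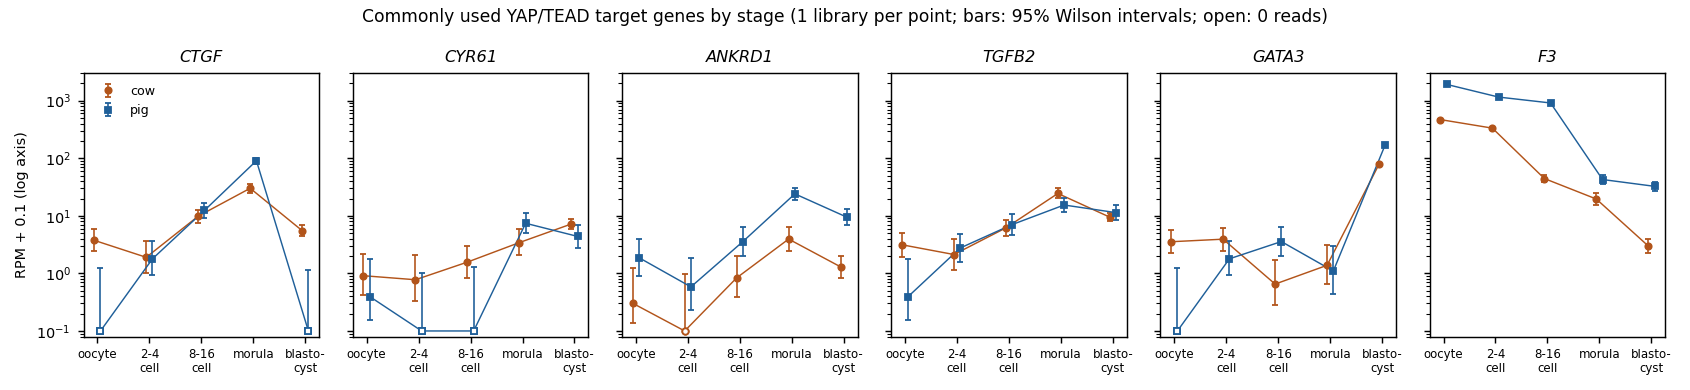
Level by stage of 6 commonly used YAP and TEAD target genes, as RPM + 0.1 on a log axis, for cow (circles) and pig (squares), 1 library per point, with 95% Wilson intervals as bars and open symbols for 0 reads. CTGF peaks in the morula of both species (30.0 and 90.6 RPM), GATA3 is high in the blastocyst alone (78.8 and 173 RPM), and F3 declines from 469 and 1919 RPM in the oocytes.

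The genes whose course was most like that of TEAD4 over the 10 libraries were looked for among 7527 shared symbols that reached 5 RPM in a cow library and in a pig library. Likeness was the root mean square difference of log2(RPM + 1) after centring each gene within a species, so a smaller value is more alike. The 3 closest to TEAD4 were ELF2, at 0.40, ETNK1, at 0.53, and GPHN, at 0.55, where the median over all symbols was 1.95. ELF2, an ETS-family transcription factor, measured 14.2, 21.6, 91.5, 209 and 151 RPM in cow and 3.85, 20.5, 15.2, 78.3 and 61.4 RPM in pig. Like TEAD4 it was highest in the morula of both species. The 3 closest to LATS2 were CAB39L, at 0.25, RANBP3, at 0.26, and CCDC167, at 0.30, where the median over all symbols was 1.17. CAB39L stayed between 10.5 and 25.4 RPM in cow and between 8.66 and 16.6 RPM in pig. The libraries of a species share their scaling, and these closest genes are picked from many, so likeness is a description of these 10 libraries.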

How the data were processed

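The authors' deposited tables hold log2 values, 1 table for cow and 1 for pig, in which genes are rows and stages are columns; gene names and spans are given per the file headers. The submitters' processing notes name Trim Galore 0.6.4, HISAT2 2.1.0 and the builds UMD3.1, a cow assembly, and Sscrofa11.1, a pig assembly; counting method, annotation, strand handling and removal of duplicates are not given in the sources used here. Per the labels' protocols, RNA was amplified with a low-input kit before 8 cycles of PCR, with no molecular identifiers described, so reads are not independent molecules.

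In each column the values are whole multiples of 1 read (99.97% to 100% of values within 0.02 read), with 0 reads written as 0.9 read. Read totals and reads per gene were recovered from this, and reads in gene rows were 71.7% to 92.7% of the totals. Changes are differences of log2(RPM + 1) with 0 reads kept at 0.9 read, computed within a species because the tables were scaled separately. Genes with under 1 RPM in both stages were not compared. Wilson intervals of 95% were used for levels and shares, and exact (Clopper-Pearson) intervals of 95% for ratios. Against 0 reads a ratio was computed with the 0 reads set to a floor of 3 reads and is written with "at least". It leaves out the counting error of the other stage, so it is not the lower end of a 95% interval. With 1 library per group no test was possible. The computation was tested on simulated counts. Python 3.11.15, pandas 2.3.3, numpy 2.4.6, scipy 1.17.1 and matplotlib 3.10.9 were used.

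The genes of the set, the 49 other pathway genes, the marker lists and the rule for naming genes were chosen with earlier results of these data known. The rule names every gene of the set, within each role the pathway gene with the largest called rise and fall between oocyte and blastocyst in each species, those called in opposite directions, and the 3 symbols most like YAP1, TEAD4 and LATS2; likeness to YAP1 could not be computed without a cow row. In cow 47 and in pig 46 of the 49 were in the table. The values of 1 of them that the rule would name are not reported here; it stays in the counts. Alternatives for pseudocount, minimum level, threshold, scaling, depth and repeated symbols were tried. Protein features and shares per coding length were planned and not analysed here, since no protein sequences were used.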

Additional observations from a re-analysis of the deposited data

Results flagged for a closer look

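MOB1A, the coactivator of the LATS kinases, was the gene of the pathway list called changed in opposite directions in both species, which is why it is given again. From the 8-16 cell stage to the morula its change on the log2(RPM + 1) scale was -2.01 in cow and 2.84 in pig. The cow value lies close to the threshold of 2, and these step values were not recomputed under other settings. From oocyte to blastocyst the MOB1A change was -2.32 in cow and 5.34 in pig, the latter from 1 read in the pig oocyte library. The cow fall was -1.93 with scaling to non-mitochondrial reads and was then not called. Both comparisons use 1 library per stage and the difference between species was not tested. The pig MOB1A span overlaps MTHFD2 on the other strand by 604 bases; the part of that overlap in the values was not tested.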

How the results depend on the processing

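Under 11 other settings the differences of the gene set were recomputed for consecutive steps and for oocyte to blastocyst. Those of the pathway list were recomputed for oocyte to blastocyst only. The step values given for MOB1A, CTGF and ANKRD1 and the differences between stages that are not neighbours were therefore not recomputed. No called change among those recomputed turned sign. Under the 6 settings that can move a difference, 479 of 534 recomputed differences of the gene set stayed within their counting intervals. With a pseudocount of 5 in place of 1, 3 genes of the set were called in cow from oocyte to blastocyst (5 as reported), 5 changes were called at consecutive steps (10 as reported) and 11 pig pathway genes (20 as reported). With a threshold of 1 in place of 2 the counts were 8 genes of the set in pig (4 as reported, now with 2 lower), 29 cow and 32 pig pathway genes (15 and 20 as reported) and 30 changes at steps. With a threshold of 3 they were 3 genes of the set in cow, 10 pig pathway genes and 6 changes at steps. All other counts stayed within 1.5 times the reported ones. The calls of WWTR1 in both species, of NF2 in cow and of TEAD4 and AMOTL2 in pig from oocyte to blastocyst were kept under each setting. The number of genes going the same way in both species was 8, with 7 under quantile normalisation and 9 without a minimum level.

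Scaling moved the median of all genes by up to 0.35, for cow from oocyte to blastocyst with non-mitochondrial reads, and by -0.31 for pig with quantile normalisation. The share of higher calls among all changed genes moved from 50.0% to 20.5% at the first cow step, from 46.4% to 61.1% at the second and, in pig, from 60.0% to 73.3% at the first, all with median of ratios scaling. With quantile normalisation it moved from 88.8% to 62.7% at the second pig step, and with non-mitochondrial reads from 50.7% to 61.4% at the last cow step. Summing repeated rows could not move the shares among related genes, since each gene had 1 row. Division by coding length was not run. No paired analysis was possible because each group had 1 library. Low reads limit TEAD2, early TEAD4 and early AMOTL2, and the spread between embryos is unknown.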
